A study of Fraxinus excelsior with 182 samples.

Results

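European ash (Fraxinus excelsior) carries a run of JOINTLESS-like dormancy MADS-box genes with neighbouring identifiers. The run consisted of Fe_g18373.1, Fe_g18374, Fe_g18375, Fe_g18376 and Fe_g18379, which are 5 of the 42665 gene models in the deposited table. They were chosen by identifier and by their place among the JOINTLESS sequences in the study's phylogeny. The study had itself picked these genes on the same trees, for a relation between their expression and ash dieback damage. Ash dieback is the disease caused by the fungus Hymenoscyphus fraxineus.

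The libraries held leaf RNA of 182 accessions of a Danish ash panel, 1 library from each tree. The labels give the tissue and the tree's name (Ash1 to Ash218, with gaps) and no treatment, age or group, so all trees formed 1 group and no groups were compared. Levels are TPM, an abundance per coding length scaled to the same total in each tree, so that levels of different genes can be set side by side. The table gives no read counts, and the depth behind a value is unknown. Between 31244 and 34889 gene models were above 0 in a tree. DVR (Fe_g5474), a chlorophyll synthesis gene, ranged from 7.66 to 34.1 TPM and coproporphyrinogen-III oxidase (CPX, Fe_g32180), which acts earlier in the same pathway, from 515.4 to 1580 TPM, so these genes of green tissue were expressed in every library. In whole leaves, fewer cells of a type and less RNA per cell cannot be told apart.

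MADS-box proteins are transcription factors that bind DNA through the MADS domain and pair with each other through the K-box. JOINTLESS was named in tomato, where it is needed to form the abscission zone of the flower stalk, and its closest relatives in Arabidopsis are the flowering regulators SVP and AGL24. In fruit trees such as peach, genes of this branch are known as DORMANCY-ASSOCIATED MADS-BOX (DAM) genes. They lie in tandem there, and a peach mutant that lacks several of them does not form dormant buds. In the annotation of the ash genome, Fe_g18373.1, Fe_g18375, Fe_g18376 and Fe_g18379 carried both a MADS domain and a K-box, whereas Fe_g18374 carried a K-box alone. Neither the positions nor the sequences of these genes were used here.

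Fe_g18374 and Fe_g18375 were the abundant members, and the other members were expressed at lower levels. Fe_g18375 was the member that stayed above 1 TPM in every tree. Its level was 30.6 ± 12 TPM (SD, n = 182), with 6.65 TPM in the lowest tree (Ash18), a median of 31.5 TPM and 63.4 TPM in the highest tree (Ash157). Its 90th percentile over trees was 3.09 times its 10th, the smallest such ratio of the 4 genes whose 10th percentile was above 0 TPM.

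Fe_g18374, the K-box-only model, had a like mean and a wider spread. It reached 33.2 ± 19 TPM (SD, n = 182), from 0 TPM in 7 trees through a median of 33.2 TPM to 96.02 TPM in Ash104. Its 90th percentile was 8.47 times its 10th percentile. Most genes of this abundance were never listed at 0. Of the 500 genes nearest to it in mean TPM, 28 had any tree at 0 and 6 had as many trees at 0 as Fe_g18374.

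Fe_g18376 was expressed at 8.76 ± 5.92 TPM (SD, n = 182), with a lowest value of 0.111 TPM in Ash213, a median of 8.56 TPM and a highest value of 27.8 TPM in Ash217. Its 90th percentile was 11 times its 10th, the widest of these 4 ratios. Fe_g18373.1 was the lowest member on average and the steadier of these 2 minor genes. It was at 4.51 ± 1.94 TPM (SD, n = 182), between 0.393 TPM in Ash213 and 10.01 TPM in Ash152 with a median of 4.75 TPM, and its 90th percentile was 4.26 times its 10th.

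Fe_g18379 was expressed in some trees and close to or at 0 in others. Its level was 7.37 ± 7.20 TPM (SD, n = 182), with 0 TPM in 51 trees, a median of 6.41 TPM and a highest value of 23.7 TPM in Ash130. The density of its log2(TPM + 1) values had 2 peaks, and between them it dropped at 2.20 TPM to 25.1% of the smaller one. Of the 182 trees, 76 lay below this minimum and the others above it. The densities of Fe_g18374 and Fe_g18376 also had 2 peaks. However, none of the other members, nor the sum of all 5, fell into separate clusters by the rule on depth and number of trees. Relations of Fe_g18379 with other genes are therefore given only within the trees that expressed it above the minimum.

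The spread of each member was set beside that of 500 genes of like mean TPM. The coefficient of variation of Fe_g18379 was 97.8% and exceeded that of 94.2% of such genes, that of Fe_g18374 was 57.2% and exceeded 90%, and that of Fe_g18376 was 67.6% and exceeded 85.4%. Fe_g18375 (39%, above 64% of genes) and Fe_g18373.1 (43%, above 61.2%) lay nearer the middle. The plot of each member over trees shows Fe_g18379 at or near 0 TPM throughout the trees with the lowest sums. It was also there in many trees with higher sums, up to Ash198, with 0.319 TPM of Fe_g18379 and a sum of 122.2 TPM.

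**Figure D1:**
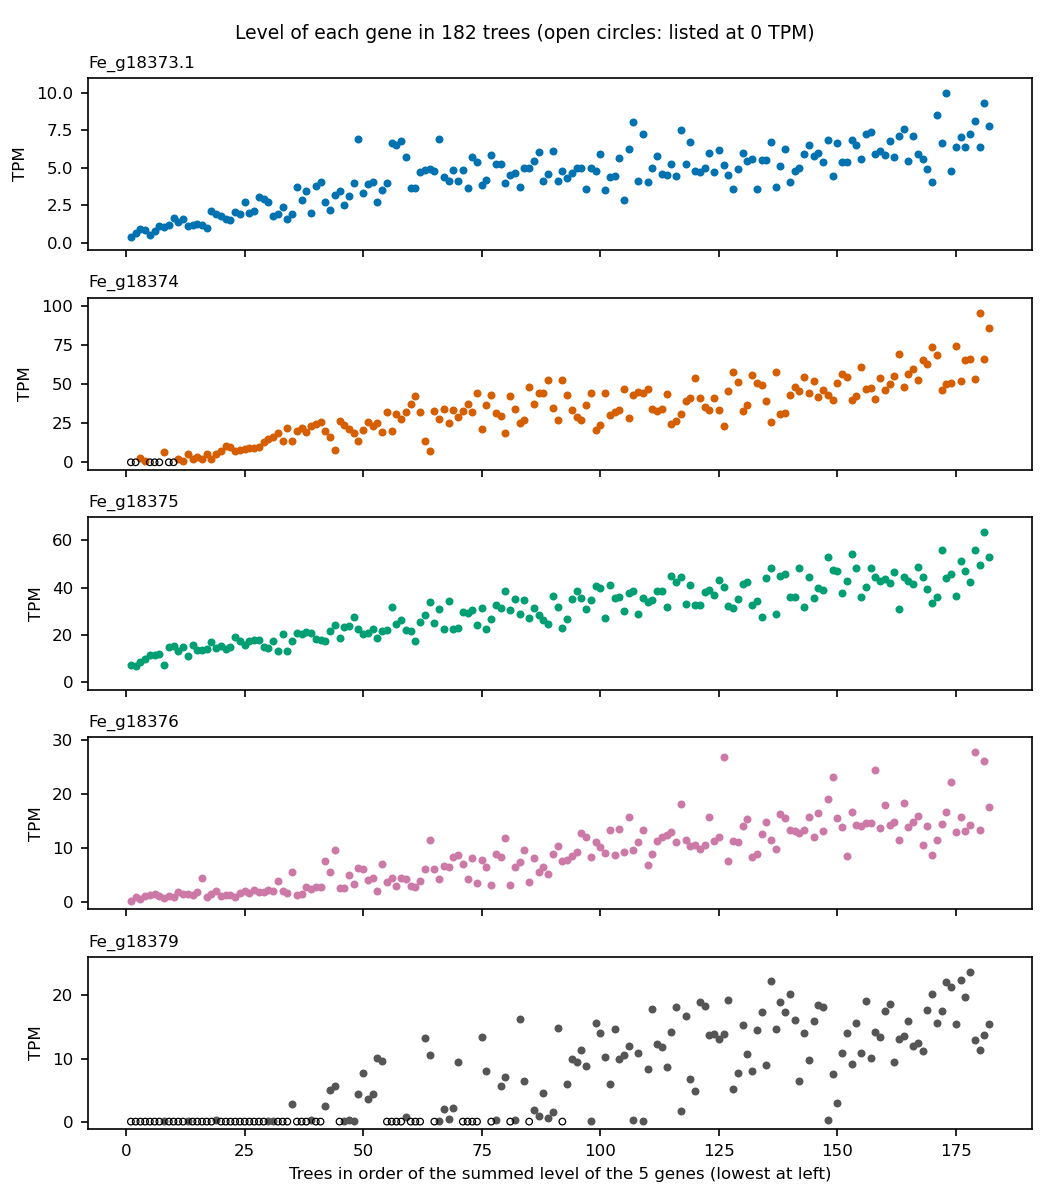
TPM of the 5 genes (1 panel each, own linear scale) in 182 trees, which are placed from the lowest to the highest summed level of the 5 genes. Each point is 1 tree, and open circles mark trees listed at 0 TPM, 7 for Fe_g18374 and 51 for Fe_g18379. Since each gene is part of the sum, a rise from left to right is built into the order, and the figure shows which trees go without a gene.

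The order of the mean levels was Fe_g18374, Fe_g18375, Fe_g18376, Fe_g18379 and Fe_g18373.1, and several neighbours in it did not differ beyond their spread over trees. Fe_g18374 was above Fe_g18375 in 93 trees and below it in 89, with a median ratio of 1.0. Fe_g18376 was below Fe_g18379 in 56 of 182 trees, and Fe_g18379 was below Fe_g18373.1 in 81. The gap between the abundant and the minor members was kept more often. Fe_g18375 exceeded Fe_g18376, Fe_g18379 and Fe_g18373.1 in all 182 trees, and Fe_g18374 was below Fe_g18376 in 13 trees, below Fe_g18373.1 in 9 and below Fe_g18379 in 1, with both of the last pair at 0 TPM in 7.

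The ratio between 2 members that varied least, by these percentiles, was that of Fe_g18375 to Fe_g18373.1. The median ratio of their levels was 7.05, with a 10th percentile of 4.88 and a 90th of 9.80. Fe_g18375 to Fe_g18376, the pair that kept the closest rank order across trees, had a median ratio of 3.81 and ranged from 2.59 to 9.97 between the same percentiles. Their levels thus rank alike, while the proportion between them varied more.

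Summed over the 5 genes, the run reached 84.5 ± 40.5 TPM (SD, n = 182). The lowest sum was 7.67 TPM in Ash213, the median was 87.9 TPM and the highest was 180.04 TPM in Ash49. Next to Ash213 at the low end were Ash18 with 8.24 TPM, Ash19 with 12.5 TPM and Ash17 with 12.5 TPM. At the high end, Ash157 summed to 178.7 TPM and Ash104 to 176.8 TPM. The sum was set beside measures of the library as a whole. Its Spearman's rho was 0.0354 with the number of gene models above 0 in a tree, 0.0477 with the share of TPM held by the 10 most abundant genes, and 0.0212 in size with the first principal component of all other genes, which held 30.5% of their variance, 0.284 in size with the second, which held 4.79%, and 0.195 in size with the fourth, which held 2.64%.

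Fe_g18374 and Fe_g18375 together made up 77.9 ± 8.02% of the sum (SD, n = 182), from 57.9% to 93.4%. Fe_g18375 held 41.1 ± 14% and Fe_g18374 held 36.8 ± 13.1%, and 1 of them was the highest member in every tree, Fe_g18374 in 93 trees and Fe_g18375 in 89. The minor members Fe_g18376, Fe_g18379 and Fe_g18373.1 held 9.56 ± 3.73%, 6.81 ± 6.31% and 5.74 ± 1.61%. The 90th percentile of the share of Fe_g18379 was 15.4%, and its highest share was 19.9% in Ash144.

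The composition changed with the summed level. As a description with no test, since a share contains the sum, Spearman's rho of the share with the sum was -0.68 for Fe_g18375 and -0.57 for Fe_g18373.1, but 0.27 for Fe_g18374, 0.51 for Fe_g18376 and 0.67 for Fe_g18379 over 182 trees. In Ash213, the tree with the lowest sum, Fe_g18375 alone made up 93.4% of the run with 7.17 TPM. In Ash49, the tree with the highest sum, Fe_g18375 held 29.5%, Fe_g18374 47.9%, Fe_g18376 9.76%, Fe_g18379 8.56% and Fe_g18373.1 4.33%. In the tree with the lowest sum the run thus consisted mainly of 1 gene, and in the tree with the highest sum all 5 genes were present.

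**Figure D2:**
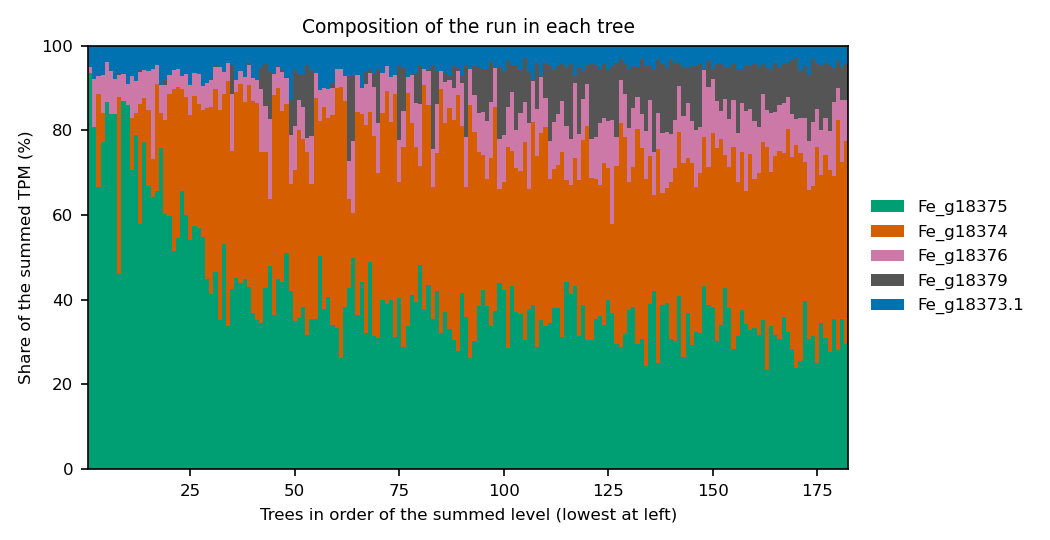
Share of each gene in the summed TPM of the run (y axis, percent) for 182 trees placed from the lowest to the highest sum (x axis, 1 bar per tree). The share of Fe_g18375 is 93.4% in the tree at the left end and 29.5% in the tree at the right end, and that of Fe_g18379 is 0% at the left end.

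Loss of a member was counted as a level under 1 TPM. By this limit, 71 trees lacked at least 1 gene and the rest expressed all 5. Of the 71 trees, 58 lacked 1, 5 lacked 2, 6 lacked 3, 2 lacked 4 and none lacked all 5. Fe_g18379 was under the limit in 71 trees (39%), Fe_g18374 in 9 (4.95%), Fe_g18376 in 7 (3.85%), Fe_g18373.1 in 7 (3.85%) and Fe_g18375 in 0 of 182 trees. A level of 0 in such a table can be a failed estimate, and Salmon divides reads among similar sequences, so how reads were shared among these related genes is uncertain.

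The losses had Fe_g18379 in common. Each of the 13 trees that lacked 2 or more genes lacked Fe_g18379, and each of the 58 trees that lacked a single gene lacked that same one. Among the 9 trees without Fe_g18374, 5 were also without Fe_g18373.1 and 3 without Fe_g18376, and 4 of the 7 trees without Fe_g18373.1 were also without Fe_g18376, so the losses of these 3 genes crossed and none of them implied another. Every tree that lacked a gene also lacked Fe_g18379 at limits of 0 TPM, 0.5 TPM and 10% of each gene's median. With a limit of 2 TPM, 1 tree was under it for Fe_g18373.1 alone and 33 trees lacked 2 or more genes.

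**Figure D3:**
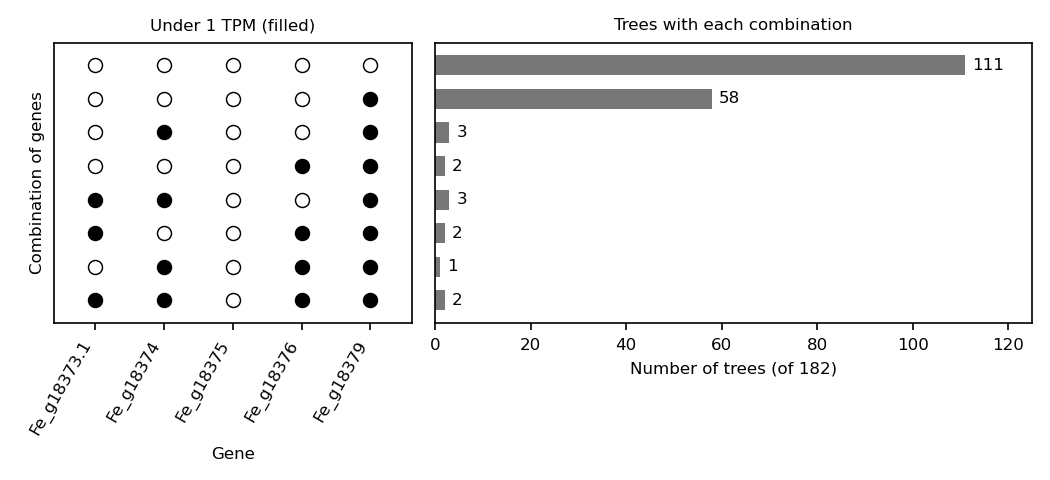
Combinations of genes under 1 TPM (left, filled circles) and the number of the 182 trees with each (right, bars from 0). The longest bar is the trees with all 5 genes and the next the 58 trees without Fe_g18379 alone, and each of the other 6 combinations, which hold 1 to 3 trees, includes Fe_g18379.

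Ash213 and Ash18 lacked 4 genes. Ash213 had 0.393 TPM of Fe_g18373.1, 0 TPM of Fe_g18374, 7.17 TPM of Fe_g18375, 0.111 TPM of Fe_g18376 and 0 TPM of Fe_g18379. Ash18 had 0.644 TPM, 0 TPM, 6.65 TPM, 0.949 TPM and 0 TPM of the same genes in the same order. Fe_g18375, the gene they still expressed, had its lowest value of all trees in Ash18.

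The 7 trees with Fe_g18374 at 0 TPM were Ash8, Ash11, Ash12, Ash18, Ash35, Ash210 and Ash213. All 7 also had Fe_g18379 at 0 TPM, and their sums of 7.67 to 17.96 TPM were among the 10 lowest. Fe_g18375 was expressed in them at 6.65 to 15.4 TPM and made up 80.7% to 93.4% of the run. A low sum and a high share of Fe_g18375 are in part built into this choice of trees, since Fe_g18374 held 36.8% of the sum on average. These libraries had 32733 to 34069 gene models above 0, within the range of all trees. Fe_g18374 and the other genes with a mean at least as high made up 5276 genes. Of these, 10 to 29 (median 18) were at 0 in these 7 trees and 6 to 34 (median 15) in the other trees. The counts in the 7 trees each include Fe_g18374, by which the trees were chosen. The libraries therefore did not stand apart in the number of abundant genes at 0.

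Low levels of the other genes and lack of Fe_g18379 went together, though not in every tree. The other 4 genes summed to between 7.67 and 121.9 TPM (median 48.7) in the 76 trees below the minimum of Fe_g18379 and to between 38.2 and 165.52 TPM (median 96.01) in the trees above it, and these ranges overlapped. Ash42 had Fe_g18379 at 0 TPM but 52.5 TPM of Fe_g18374, 23.04 TPM of Fe_g18375, 7.63 TPM of Fe_g18376 and 4.78 TPM of Fe_g18373.1. Among the trees above the minimum, Ash204 had the lowest sum of the other 4 genes, 38.2 TPM. Its Fe_g18379 was also low, at 2.76 TPM, where the median above the minimum was 13 TPM.

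The run was low in trees with low numbers in their names. The labels do not say what these numbers stand for. In the 91 trees up to the median number the sum had a median of 65.2 TPM (8.24 to 180.04 TPM), and in the 91 trees above it a median of 109.2 TPM (7.67 to 178.7 TPM). Fe_g18379 was under 1 TPM in 57 of the lower-numbered trees and in 14 of the higher-numbered trees. The ranges of the sum overlapped almost in full.

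The difference was clearest for trees numbered up to 43, a boundary chosen after the values had been seen. In these 39 trees the sum was between 8.24 and 87.99 TPM with a median of 28.9 TPM, and Fe_g18379 was under 1 TPM in 38 of them. The remaining trees had sums between 7.67 and 180.04 TPM with a median of 100.8 TPM, and Fe_g18379 was under 1 TPM in 33 (23.1%). Of the 13 trees that lacked 2 or more genes, 11 were numbered up to 43, and the other 2 were Ash210 and Ash213. Medians up to 43 and above 43 were 15 and 34.9 TPM for Fe_g18375, 9.22 and 37.7 TPM for Fe_g18374, 1.88 and 10.5 TPM for Fe_g18376, 1.80 and 5.01 TPM for Fe_g18373.1, and 0 and 9.92 TPM for Fe_g18379.

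Across all 182 trees, the 4 members without separate clusters were higher at higher tree numbers. This relation was tested after it had been seen in the same values, so its p-values are not independent support for it. Pearson's r of TPM with the number was 0.373 to 0.398 and Spearman's rho 0.377 to 0.437, with p of at most 2e-05 by two-sided permutation tests with 100000 resamples, whose smallest p is 1e-05, and r was 0.371 to 0.397 without the 2 trees of the most extreme numbers. In the limma fit of log2(TPM + 1) of all 31003 genes on tree number, 21.4% of genes were called at an adjusted p of 0.05 or less (6.03% rose and 15.3% fell), and these 4 members rose with adjusted p between 1.5e-07 and 3.0e-06. Among trees numbered above 43 the relation no longer held for these members: r was -0.09 to 0.02, and the adjusted p was 0.276 to 0.662 by limma. Over all genes, 22.2% were still called there (5.10% rose and 17.1% fell). The boundary at 43 was chosen on the same values, so the lack of a relation above it is in part built in. With this boundary, the relation of these 4 members with tree number rested on the trees numbered up to 43. The plot of levels against tree number shows these trees as a low block at the left.

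**Figure D4:**
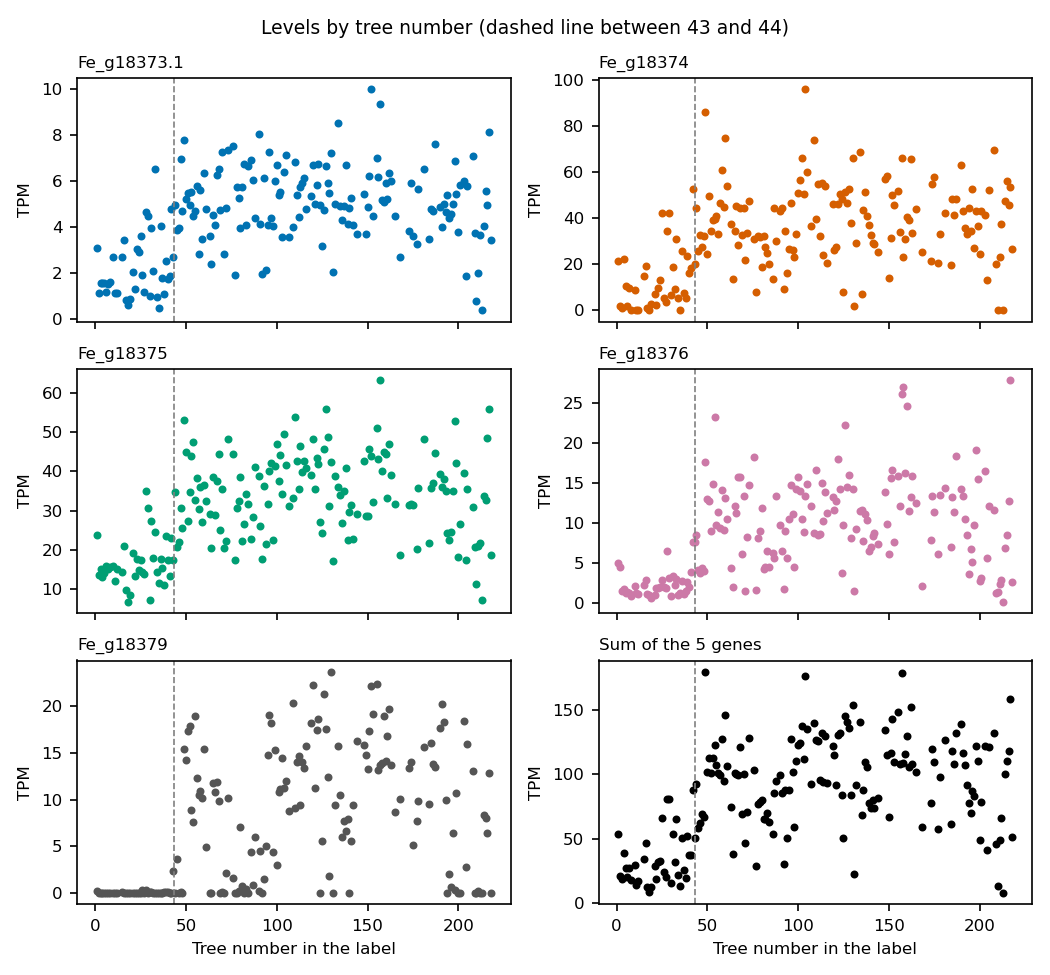
TPM of each gene and of their sum (y axes, linear) against the number in the tree's name (x axis) for 182 trees, 1 point per tree. To the left of the dashed line, which lies between 43 and 44, 38 of 39 trees have Fe_g18379 under 1 TPM and the highest sum is 87.99 TPM, whereas the sums to the right reach 180.04 TPM.

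Whether the members varied together was tested over pairs. There were 10 pairs, of which 6 were tested over 182 trees and the 4 with Fe_g18379 over the trees above its minimum. In all 10 pairs the levels rose together. The closest pair was Fe_g18375 and Fe_g18376, with a Pearson's r of 0.886 and a Spearman's rho of 0.918 on TPM, and the loosest of the 6 was Fe_g18374 and Fe_g18376, with an r of 0.635 and a rho of 0.697. Each of the 6 had p = 1e-05 for r and for rho in two-sided permutation tests with 100000 resamples, the smallest p they can give, and r between 0.636 and 0.880 without the 2 most extreme trees.

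The pairs with Fe_g18379 cannot be set beside these, since their trees were restricted by its own level. Its r was 0.423 with Fe_g18375 (rho 0.382), 0.394 with Fe_g18373.1 (rho 0.345), 0.340 with Fe_g18376 (rho 0.373) and 0.307 with Fe_g18374 (rho 0.294). The p for r in the same permutation tests lay between 1e-05 and 0.00128, and that for rho between 9e-05 and 0.00233. Without the 2 most extreme trees r was 0.330 to 0.408.

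These pairs were also read in a fit across all genes, in which limma tested log2(TPM + 1) of each gene against each member in turn. All 5 members passed the filter on low values. With Fe_g18373.1 as the lead gene, 7.79% of the 31002 other genes were called (5.98% rose and 1.81% fell), with Fe_g18374 5.18% (3.74% and 1.44%), with Fe_g18375 8.06% (6.09% and 1.97%), with Fe_g18376 5% (3.15% and 1.85%), and with Fe_g18379 in the trees above its minimum 22.4% (16% and 6.39%). Against this background 6 of 6 pairs over 182 trees rose, with adjusted p from 5.1e-67 to 1.7e-29, and 4 of 4 pairs with Fe_g18379 rose, with adjusted p from 0.000118 to 0.00431. In the 31 trees up to the median number, however, limma called 0 genes with Fe_g18379, so none of these 4 pairs was called there. With 5 principal components as covariates it called 0.0355% of genes, and results for these pairs are not given there. Few genes were closely related to a member. Only 9 to 12 genes, other members of the run included, had an r of 0.5 or more on the log2 scale with a lead gene. At the other end, 0 to 2 genes had an r of -0.5 or less. When each tree was rescaled by a median-of-ratios factor, the called genes were split more evenly, from 1853 that rose and 562 that fell to 1241 and 1183 for Fe_g18373.1, from 1161 and 445 to 806 and 661 for Fe_g18374, from 1887 and 611 to 1170 and 1040 for Fe_g18375, from 976 and 573 to 802 and 716 for Fe_g18376, and from 4967 and 1982 to 5593 and 5687 for Fe_g18379.

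The pairs were recomputed within tree numbers. Among the trees numbered above 43, the 6 pairs kept an r of 0.469 to 0.847. Within the trees up to the median number and within those above it, all 10 pairs had a positive r. However, only 31 trees above the minimum of Fe_g18379 had a number up to the median, and there its r was 0.344 with Fe_g18373.1 (permutation p = 0.0584), 0.312 with Fe_g18374 (permutation p = 0.0852) and 0.312 with Fe_g18376 (permutation p = 0.0863), which no longer passed.

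The members were set beside other gene models with neighbouring identifiers. Over 127655 pairs of genes whose identifiers lay 1 to 6 apart, r of log2(TPM + 1) had a 5th percentile of -0.49, a median of 0.07, a 95th percentile of 0.69 and a 99th percentile of 0.88. The 6 member pairs had an r of 0.74 to 0.91 with a median of 0.83 on this scale, and 3.69% of all such pairs reached the lowest of them. Above number 43, the median of the 6 pairs was 0.70 and 7.44% of the neighbouring pairs reached the lowest member pair.

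The identifiers within and beside the run did not move as 1 block. Fe_g18377, which lies between Fe_g18376 and Fe_g18379 in number, rose with all 5 lead genes, with r of 0.45 to 0.68 for 4 of them and 0.48 for Fe_g18379. Its call with Fe_g18374 was lost above the median number (adjusted p = 0.244 by limma) and that with Fe_g18379 up to the median number. It was barely expressed, with a median of 0.149 TPM, a highest value of 2.32 TPM and 21 trees at 1 TPM or more. Fe_g18378, next in number, was well expressed at 10.5 ± 3.88 TPM (SD, n = 182) and was not called with any lead gene, with r of -0.14 to 0.04.

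Of the 10 flanking identifiers, 8 passed the filter on low values. Fe_g18371, an abundant gene at 190.1 ± 41.4 TPM (SD, n = 182), rose with Fe_g18373.1 (r 0.61), Fe_g18375 (r 0.59), Fe_g18374 (r 0.53) and Fe_g18376 (r 0.39), and had an r of 0.04 with Fe_g18379 over the trees above its minimum, where it was not called. Its relation with Fe_g18376 was not called in trees above number 43 or above the median number, where the highest adjusted p by limma over the alternatives was 0.502. Fe_g18369 rose with Fe_g18373.1, Fe_g18375 and Fe_g18379, with r of 0.27, 0.28 and 0.38, and the calls with Fe_g18373.1 and Fe_g18375 were lost within tree numbers and that with Fe_g18379 up to the median number and with 5 principal components. Fe_g18381 fell with Fe_g18373.1 (r -0.26) and Fe_g18375 (r -0.21), and Fe_g18382 fell with Fe_g18379 (r -0.25), all calls that were lost under other settings. The 4 remaining flanking genes tested were not called with any lead gene.

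**Figure D5:**
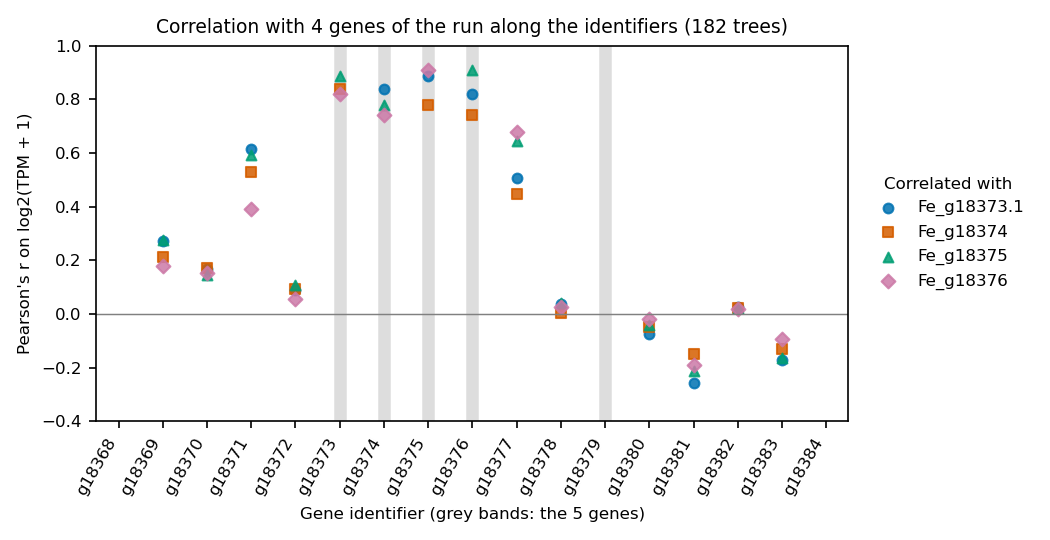
Pearson's r of log2(TPM + 1) over 182 trees (y axis) between each tested gene of the identifier range (x axis) and 4 genes of the run (symbols). Grey bands mark the 5 genes, and Fe_g18379 has no points because its values fall into separate clusters. The members reach an r of 0.74 to 0.91 with each other, Fe_g18371 and Fe_g18377 lie between 0.39 and 0.68, and Fe_g18378 lies near 0.

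The other MADS-box genes of the study's list were read in the same fits. This list was picked by the study on the same trees, so its relations with the run are not independent of that choice. The SOC1-like genes were Fe_g40351.1, Fe_g40353, Fe_g19663 and Fe_g40350, and their Arabidopsis relative SOC1 promotes flowering. The first 2 of them were the closest companions of 4 members of the run by r. Among all genes outside the run, Fe_g40351.1 and Fe_g40353 had the highest 2 values of r with each of the 4 lead genes over 182 trees. For Fe_g40351.1, r was 0.74 to 0.78, and for Fe_g40353 0.72 to 0.80. Fe_g19663 had an r of 0.63 to 0.68 and Fe_g40350 of 0.57 to 0.74 with these lead genes.

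The JOINTLESS-like gene Fe_g36254, which lies outside the run in number and was more abundant than any member at 100.0 ± 22.4 TPM (SD, n = 182), rose with the 4 lead genes at an r of 0.54 to 0.60. The SVP-like gene Fe_g22999 moved the other way, with r of -0.38 to -0.49. SVP represses flowering in Arabidopsis, and this gene was at 16.8 ± 9.31 TPM (SD, n = 182). So 5 of 6 of these genes rose and 1 of 6 fell with each of the 4 lead genes, beside the 3.15% to 6.09% and 1.44% to 1.97% of all genes tested that did so. The fall of Fe_g22999 with Fe_g18375 was called under all 7 alternatives. That with Fe_g18373.1 and Fe_g18374 was not called within tree numbers, and that with Fe_g18376 was not called above the median number.

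With Fe_g18379 in the trees above its minimum, 3 of 6 rose and 1 of 6 fell, beside 16% and 6.39% of all genes tested. Fe_g40353 (r 0.53), Fe_g40351.1 (r 0.51) and Fe_g19663 (r 0.43) rose and Fe_g22999 fell (r -0.38), with adjusted p of 0.00011 to 0.0021 by limma. Fe_g40350 (r 0.18, adjusted p = 0.159) and Fe_g36254 (r 0.19, adjusted p = 0.140) were not called there. None of the 4 calls was kept in the 31 trees up to the median number, and those of Fe_g19663 and Fe_g22999 were lost with 5 principal components as covariates. Whether these r differed from those of the other lead genes was not tested.

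In the 7 trees with Fe_g18374 at 0 TPM, Fe_g40353 was at 2.04 to 11.3 TPM, where its median over all trees was 40.6 TPM. Fe_g22999 was at 23.9 to 36.1 TPM in them, where its median over all trees was 18 TPM. These 7 trees were thus below the median in this SOC1-like gene and above it in the SVP-like gene. The other trees among the 10 lowest sums, Ash17, Ash19 and Ash30, had Fe_g18374 above 0 TPM and lay on the same sides. Their values were 5.41, 17.5 and 7.15 TPM for Fe_g40353 and 36.7, 26.9 and 31.8 TPM for Fe_g22999. The pattern was therefore not particular to trees with Fe_g18374 at 0 TPM.

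Outside the MADS-box genes, the lowest r belonged to Fe_g27900, a gene with an AP2 DNA-binding domain of the kind found in APETALA2 and ethylene response factors. It was expressed at 32.6 ± 15.7 TPM (SD, n = 182) and fell with Fe_g18375 (r -0.57), Fe_g18376 (r -0.55), Fe_g18374 (r -0.54) and Fe_g18373.1 (r -0.52), the lowest r of all genes for each of them. Its call with Fe_g18375 was kept under all 7 alternatives, that with Fe_g18376 was lost above the median number, that with Fe_g18373.1 above number 43, and that with Fe_g18374 in both. Fe_g44077.1, annotated as a factor that binds AT-rich DNA, was next lowest with Fe_g18374 (r -0.49) at a mean of 0.630 TPM. Fe_g32675, for which no annotation was used, was next lowest with Fe_g18373.1 (r -0.50) and Fe_g18375 (r -0.51) and was called under all 7 alternatives with both, and it had an r of -0.48 with Fe_g18376. Fe_g11100 (r -0.47 with Fe_g18374) and Fe_g15540 (r -0.44 with Fe_g18373.1) came next at this end, and both calls were lost above the median number, that of Fe_g11100 also above number 43.

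The genes most like Fe_g18379 were, after Fe_g40353, Fe_g3569.2 (r 0.53) and Fe_g21248.1 (r 0.52), and the lowest were Fe_g33158.1 (r -0.49), Fe_g21601 (r -0.48) and Fe_g1157.1 (r -0.46), over the trees above its minimum. None of these is annotated in the sources used here. With 5 principal components of the other genes as covariates these 5 calls were lost, while the call of Fe_g40353 was kept. In the 31 trees up to the median number, none of the 6 was called.

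Companions of the summed level were taken by r on the log2 scale. This r over 182 trees was 0.82 with Fe_g40353, 0.82 with Fe_g40351.1, 0.71 with Fe_g19663 and 0.70 with Fe_g40350, and at the other end -0.60 with Fe_g27900, -0.52 with Fe_g32675 and -0.50 with Fe_g44077.1. By Spearman's rho the order was another one, with Fe_g18377 highest of these named genes (0.76, against 0.70 for Fe_g40353) and Fe_g22999 lowest (-0.64, against -0.52 for Fe_g27900). The rho of Fe_g40350 was 0.45, below the 0.47 of Fe_g36254. Among the trees numbered above 43, r was 0.71 with Fe_g40353, 0.69 with Fe_g40351.1 and -0.39 with Fe_g27900. The relations were thus weaker in size without the low-numbered trees but kept their sign.

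Other regulators of phenology were taken from the study's annotated genes. Of 7 such genes, which included relatives of the circadian clock genes APRR1 and ZTL, the ethylene signalling factor EIN3 and the abscisic acid synthesis enzyme NCED2, 1 rose with each of the 4 lead genes and 6 were not called, beside the 3.15% to 6.09% of all genes tested that rose. The gene that rose was Fe_g21102, a B-box zinc finger gene at 4.15 ± 1.70 TPM (SD, n = 182), with r of 0.28 to 0.39. It was not called among the trees above the median number or above number 43. With Fe_g18379, none of the 7 was called by limma, beside 22.4% of all genes tested, and r was between -0.24 and 0.17. Of the 6 genes not called, 5 were called with at least 1 lead gene under some alternative, most often the CONSTANS-like gene Fe_g45829, whose r reached 0.39 with Fe_g18375. With Fe_g18379, Fe_g45829 was called in the other direction under median-of-ratios scaling (r -0.33, adjusted p = 0.0048 by limma).

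DVR, the chlorophyll synthesis gene named above, fell with all 5 members, where 1.44% to 6.39% of all genes tested did so, with r of -0.35 to -0.26 and adjusted p of 0.000189 to 0.0293 by limma. CPX fell with Fe_g18375 alone (r -0.24, adjusted p = 0.0228), and its r with the other members was -0.18 to -0.14. Alternative settings are not given for DVR and CPX. The part of DVR in the variation of the run was not tested.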

How the data were processed

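The 100 bp Illumina leaf reads came from an earlier study of the Danish panel. For this series, the authors used Trimmomatic to trim them and Salmon 0.8 to estimate abundance on the coding models of their long-read genome, followed by tximport. The deposited TPM values sum to 1000000 per tree and keep no depth, so no counting interval was given, and a gene's TPM depends on all others.

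The members and gene lists were chosen with earlier results of these data known. Genes named were the 5 members, the identifiers between and beside them, the study's other MADS-box genes, 7 phenology and 2 pigment genes, and the 3 highest and 3 lowest genes by r for each member and for the sum. Genes with at least 1 TPM in 19 or more trees were tested (31003, with all 5 members) with limma 3.58.1 in R 4.3.3 on log2(TPM + 1) against the standardized lead gene, with Benjamini-Hochberg adjustment over all genes and calls at 0.05. Separate clusters required a Gaussian kernel density dip below 0.5 of the smaller peak and 18 or more trees on each side. Pairs of members were tested by permutation in numpy 2.4.6. The fit and the permutation code were tested on simulated data. The fit on tree number and the boundary at 43 were chosen after seeing the data. Trees were treated as independent, and relatedness was not modelled.

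Alternatives were a pseudocount of 0.1, no filter, median-of-ratios scaling, 5 principal components as covariates, trees up to and above the median number, trees above number 43 and other limits of loss. Damage scores were not used.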

Additional observations from a re-analysis of the deposited data

How the results depend on the processing

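No paired analysis was possible because all trees form 1 group. The mean sum was 65.8 TPM up to the median tree number and 103.3 TPM above it (84.5 TPM in all trees), and the mean share of Fe_g18379 was 3.65% and 9.98% (6.81%). All mean levels, shares and sums stayed within 1 SD between trees of the full set, a wide margin for a mean. Of 60 alternative values for pairs of members, 57 stayed on the same side of the threshold, and the 3 that did not are the pairs of Fe_g18379 with r of 0.344, 0.312 and 0.312 in 31 trees up to the median number. The 5 principal components, the pseudocount of 0.1 and the lack of a filter were not among the alternatives for these pairs. The median r of the 6 pairs fell from 0.83 to 0.70 above number 43. For 4 of the lead genes the share of genes called was lower within tree numbers, where fewer trees were tested. Up to the median number, above it and above number 43, it was 1.31%, 0.245% and 0.655% for Fe_g18373.1 (7.79% in all trees), 0.645%, 0.0645% and 0.429% for Fe_g18374 (5.18%), 4.98%, 3.38% and 1.70% for Fe_g18375 (8.06%), and 1.65%, 0.0774% and 0.171% for Fe_g18376 (5%). For Fe_g18379 (22.4%), limma called 0 genes in the 31 trees up to the median number, where 1440 had an unadjusted p under 0.05, and the share was 19.1% above the median number, 20.3% above number 43, 0.0355% with 5 principal components and 36.5% with scaling. A pseudocount of 0.1 gave 2.74% for Fe_g18374, and the 5 components gave 8.15% for Fe_g18376. The cause of these shifts was not tested. With these components the genes that rose and fell were 1166 and 1503 for Fe_g18373.1, 742 and 1278 for Fe_g18374, 1330 and 2044 for Fe_g18375, and 896 and 1631 for Fe_g18376. Scaling moved the median gene of a tree by -0.21 to 0.56 on the log2 scale.

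The number of trees without a gene followed the limit. At 0 TPM, under 0.5 TPM, under 2 TPM and under 10% of the median it was 0, 1, 27 and 1 for Fe_g18373.1 and 0, 1, 31 and 3 for Fe_g18376. For Fe_g18374 it was 14 under 10% of the median. Trees without 2 or more genes numbered 7, 7 and 33 at 0, 0.5 and 2 TPM. Above number 43, the trees under 1 TPM were 2 for Fe_g18373.1, 2 for Fe_g18374, 1 for Fe_g18376, 33 for Fe_g18379 and 2 for 2 or more genes. Of 770 relations of named genes with a member under alternatives, which left out DVR and CPX, 686 kept their side of the threshold, 65 lost the call and 19 gained one. No relation called in the full fit changed direction.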
